A study of Homo sapiens with 14 samples.

Results

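The transgene-high subset is a group of 4174 cells within the SW620-TET2CD line, selected on 5 genes. A cell belonged to it when at least 2 of TET2, H19, RAB34, CALML3 and SBSPON had 1 or more UMIs (unique molecular identifiers, each standing for 1 captured transcript). These cells made up 17.1% of the 24383 SW620-TET2CD cells within the quality limits, which in turn were part of 48282 such cells and 67056 barcodes in all 8 single-cell libraries. The reference was the 16434 cells of the same libraries with none of the 5 genes, and 3775 cells with exactly 1 of the genes lay between. The 5 genes chose the cells, so their levels describe the selection and were not tested.

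SW620 is a colorectal cancer cell line. SW620-TET2CD overexpressed the catalytic domain of TET2, and the control line, SW620-FLAG, carried an empty FLAG vector (its labels read SW620). Both lines grew in long-term culture (LTC) without passage, and cells were taken for 10x Genomics 3' single-cell RNA-seq on days 6, 9, 12 and 15, with 1 library per line and day. The labels and methods read for this work do not say whether the line is a clone or a pool. Day 15 bulk RNA-seq of both lines, with 1 library each from cells inside and outside the colonies, took no part in the selection.

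TET enzymes oxidise 5-methylcytosine in CpG dinucleotides, the first step of active DNA demethylation, and the catalytic domain holds this activity without the amino-terminal part of the protein. Genes held silent by promoter methylation in somatic cells include cancer-testis genes, which are normally transcribed in germ cells. Imprinted genes are held silent on only a single parental allele. Of the selecting genes, H19 is an imprinted long noncoding RNA, RAB34 a small GTPase of membrane traffic and ciliogenesis, CALML3 a calmodulin-like protein of epithelia, and SBSPON a somatomedin B and thrombospondin domain protein. No methylation was measured in these libraries, and a TET2 UMI does not tell the transgene from the endogenous gene.

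The sequences just upstream of the genes are shown because CpG is the substrate of the enzyme. Each run is the 250 bases before the start of the canonical transcript (GENCODE release 44, genome build GRCh38), in the direction of transcription, with every CG in capitals. RAB34 and CALML3 selected the cells. Among genes above a level limit given below, RAB25 and MAGEB2 were among those that rose most in these cells, and TNFRSF18 fell most.
RAB34: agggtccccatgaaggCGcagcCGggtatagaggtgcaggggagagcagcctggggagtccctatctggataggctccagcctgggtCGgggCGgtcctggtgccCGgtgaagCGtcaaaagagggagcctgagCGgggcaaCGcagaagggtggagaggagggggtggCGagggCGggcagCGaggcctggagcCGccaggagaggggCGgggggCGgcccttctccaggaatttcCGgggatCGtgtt
CALML3: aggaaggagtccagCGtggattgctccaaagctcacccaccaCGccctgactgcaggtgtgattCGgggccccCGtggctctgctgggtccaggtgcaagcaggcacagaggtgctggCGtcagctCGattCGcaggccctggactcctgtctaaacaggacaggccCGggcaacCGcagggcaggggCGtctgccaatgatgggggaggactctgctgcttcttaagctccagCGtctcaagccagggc
RAB25: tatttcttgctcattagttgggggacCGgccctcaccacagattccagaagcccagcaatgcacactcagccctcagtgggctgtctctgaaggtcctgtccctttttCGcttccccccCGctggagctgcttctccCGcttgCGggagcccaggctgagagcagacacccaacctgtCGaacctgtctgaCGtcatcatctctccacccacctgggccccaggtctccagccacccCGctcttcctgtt
MAGEB2: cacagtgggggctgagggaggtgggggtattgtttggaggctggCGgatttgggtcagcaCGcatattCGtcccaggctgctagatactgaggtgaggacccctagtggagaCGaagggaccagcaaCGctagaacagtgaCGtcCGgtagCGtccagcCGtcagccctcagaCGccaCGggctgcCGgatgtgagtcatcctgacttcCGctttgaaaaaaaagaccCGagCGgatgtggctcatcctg
TNFRSF18: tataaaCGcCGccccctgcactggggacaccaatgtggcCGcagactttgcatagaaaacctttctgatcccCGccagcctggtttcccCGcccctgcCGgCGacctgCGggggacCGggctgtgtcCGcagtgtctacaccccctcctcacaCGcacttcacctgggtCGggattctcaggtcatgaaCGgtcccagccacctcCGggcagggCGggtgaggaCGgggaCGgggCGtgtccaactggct

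The RAB34 window (chr17:28717869-28718118, minus strand) held 16 CG dinucleotides and the CALML3 window (chr10:5524711-5524960, plus strand) 11. RAB25 (chr1:156060910-156061159, plus strand) had 8, MAGEB2 (chrX:30215313-30215562, plus strand) 15 and TNFRSF18 (chr1:1206593-1206842, minus strand) 18. Over the 15000 tested genes with such a window the median was 21 CG, so all 5 windows lay below it. Among the 236 genes that were over 4-fold higher in the subset, 125 had fewer than 10 CG, against 18.0% of all windows. Genes that were nearly silent in the control line had few CG in general, so genes within the same band of level were compared as well. Level was not matched within a band. The filter on low counts used for the tests admits genes at the low end of a band through the subset, where they are high. Its part in these shares was not tested. At a level of 0.1 to 1 CPM (UMIs of the gene scaled to a common total of the sum) in SW620-FLAG cells, 57.4% of 136 genes over 4-fold higher in the subset had fewer than 10 CG, against 45.6% of all 1891 genes of that level. At 1 to 10 CPM the numbers were 15 of 43 genes and 1228 of 5121. These are counts of letters over genes, which are not independent replicates, and no test was made of them. Of all raised genes at 0.1 to 1 CPM 42.7% had fewer than 10 CG, below the share of all genes of that level, and of lowered genes at 1 to 10 CPM 32.9% did.

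The subset was present on each day and was smaller at the end of LTC. It held 1676 of 8154 SW620-TET2CD cells on day 6 (20.6%, exact 95% interval 19.7 to 21.5), 1334 of 6447 on day 9 (20.7%, 19.7 to 21.7), 584 of 3894 on day 12 (15.0%, 13.9 to 16.2) and 580 of 5888 on day 15 (9.85%, 9.10 to 10.6). The same rule found 11 of 5547, 13 of 7509, 8 of 3930 and 2 of 6913 cells in SW620-FLAG, at most 0.204%. Median depth was 8310 to 12380 UMIs per cell in SW620-TET2CD and 6640 to 13480 in SW620-FLAG. When each cell was thinned to 3000 UMIs, the shares in SW620-TET2CD were 9.49%, 8.55%, 4.63% and 3.62% from day 6 to day 15, and no SW620-FLAG library exceeded 0.0273%. The size of the fall depended on the quality limits. With every barcode kept, the share was 21.05% on day 6, 21.39% on day 9 and 12.91% on day 15. The day 12 interval was then 18.06 to 19.96. With a mitochondrial limit of 20%, the share was 20.41% on day 6 and 12.28% on day 15. The intervals of days 12 and 15 lay below those of days 6 and 9 with and without thinning, and also under these wider limits. They cover counting error only, and with 1 library a day the spread between cultures was not measured.

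**Figure D1:**
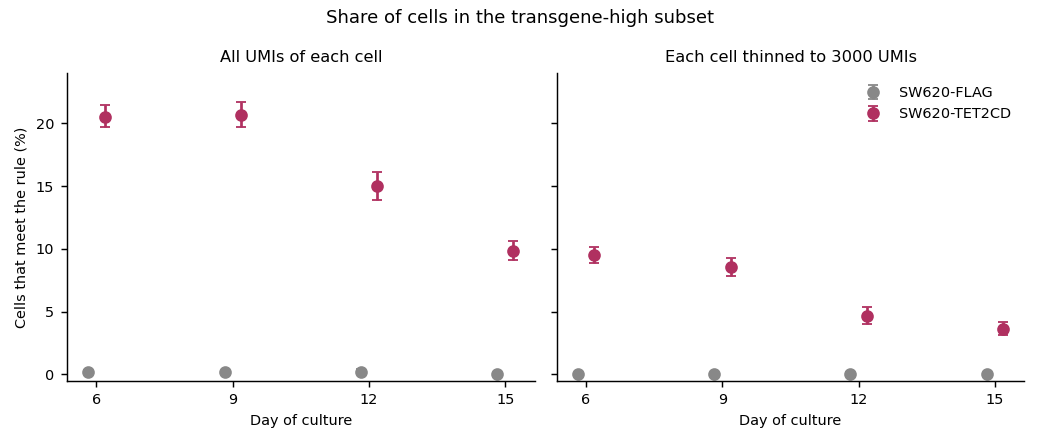
Share of cells with at least 2 of the 5 selecting genes (percent, y axis) by day of culture (x axis), from all UMIs (left) and after thinning each cell to 3000 UMIs (right); points are single libraries and bars exact 95% binomial intervals. The SW620-TET2CD shares were 20.6% on day 6 and 9.85% on day 15 before thinning, and every SW620-FLAG point lay near 0.

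The selecting genes occurred together, which is in part what the rule asks for, and the following shares describe the selection. Each gene was looked up in cells with at least 2 of the other 4 genes and in cells with none of them. TET2 (GRCh38 chromosome 4, 105145875 to 105279816) had a UMI in 86.1%, 77.4%, 69.4% and 65.4% of the former cells from day 6 to day 15, and in 9.26% to 12.1% of the latter. RAB34 (chromosome 17, 28714281 to 28718429) was found in 33.6% to 40.9% against 0.791% to 2.24%. CALML3 (chromosome 10, 5524961 to 5526771) was found in 32.5% to 63.0% against 1.67% to 7.15%, and SBSPON (chromosome 8, 73064543 to 73124088) in 27.9% to 54.9% against 2.30% to 6.05%. Each gene was thus far more frequent beside the others in each of the 4 libraries. Depth was not matched in these shares, and its part was not tested. The subset did not hold all cells with a TET2 UMI, and 87.2% of its own cells had one. Of 2274 cells with a TET2 UMI on day 6, 1558 were in the subset and 716 had none of the other 4 genes. Of 1014 such cells on day 15, 473 were in the subset and 541 had none of the other 4.

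H19 (chromosome 11, 1995166 to 2004552) was the rarest and the most uneven of the 5. It had a UMI in 12.6% of subset cells, with up to 154 UMIs in 1 cell, and the 10 cells richest in H19 held 20.5% of its 2949 UMIs. Its summed level in the subset was 15.2 CPM on day 6, 48.9 on day 9, 62.6 on day 12 and 238 on day 15. TET2 moved the other way, with 370 CPM on day 6 and 223, 184 and 205 CPM at the later times. H19 in the control line stayed at or below 0.296 CPM, RAB34 at or below 0.110 CPM and TET2 between 2.11 and 3.90 CPM. CALML3 fell there from 4.36 CPM on day 6 to 0.0568 on day 15, so the background of that gene also differed between days.

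Cells of the subset were somewhat deeper than reference cells. The rule itself favours this, since it asks for UMIs in subset cells and for their absence in reference cells. Their median UMI count was 9421 against 8402 on day 6, 11680 against 11020 on day 9, 13230 against 12160 on day 12 and 10320 against 7960 on day 15. The mean ratio was 1.14 (range 1.06 to 1.30, higher in 4 of 4 libraries, a two-sided exact sign-flip test of 4 libraries cannot pass 0.05). Genes per cell had a mean ratio of 1.13 (higher in 4 of 4 libraries), and the mitochondrial share one of 1.04 (higher in 3 of 4 libraries, exact p = 0.25). The few SW620-FLAG cells that met the rule were also deeper than SW620-FLAG cells with none of the genes. Their medians from day 6 to day 15 were 14560 against 13440, 9706 against 6604, 15290 against 13050 and 10050 against 7095 UMIs. Comparisons of genes in SW620-TET2CD were therefore repeated with reference cells matched on UMIs and with thinned cells.

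UMIs were summed per library and group, and the subset was compared with the reference by edgeR's quasi-likelihood test with the library as block. Of 15051 genes tested, 3644 passed an adjusted p of 0.05 (24.2%), with 1966 higher in the subset (13.1%) and 1678 lower (11.1%). Large rises outnumbered large falls, but the filter on low counts admits genes through the group where they are high, and of the 236 rises over 4-fold 53 lay at or below 0.1 CPM in SW620-FLAG and 136 at 0.1 to 1 CPM, where so deep a fall could hardly pass. Of the genes that were higher, 622 differed by more than 2-fold and 236 by more than 4-fold, against 219 and 22 of those that were lower. The direction was the same in 4 of 4 libraries for 1927 of the 1966 higher genes and 1455 of the 1678 lower genes, whereas of all tested genes 31.0% were higher and 13.3% lower in 4 of 4. The call count was 2657 by DESeq2 and 3631 with the reference matched on UMIs. It was 1301 in thinned cells, where the rule was applied again to the thinned UMIs (766 subset and 6003 reference cells on day 6), and 2413 without the day 9 library.

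Among genes with a mean of at least 8 CPM, those that rose most came from several families. RAB25 (ENSG00000132698, chromosome 1, 156061160 to 156070504), an epithelial GTPase of the recycling endosome, had 6.89, 16.1, 33.6 and 40.9 CPM in the subset on days 6, 9, 12 and 15, and 0.109, 0.177, 0.447 and 1.93 CPM in the reference. SULT1C4 (ENSG00000198075, chromosome 2, 108377911 to 108388989), a cytosolic sulfotransferase, had 11.2, 21.2, 33.6 and 67.0 CPM against 0.481, 0.641, 0.775 and 3.26 CPM. Both increased over the days in subset and reference alike. Their log2 fold changes were 5.24 (SE 0.27) and 4.66 (SE 0.16), with edgeR adjusted p of 2.92e-07 and 2.885e-08. STRIT1, a micropeptide that acts on the calcium pump of the sarcoplasmic reticulum, had 11.6 to 22.8 CPM in the subset and 0.190 to 0.699 CPM in the reference (log2 fold change 4.92). AGR2, a protein disulfide isomerase of mucus-secreting epithelia, had 17.1 to 59.1 CPM against 0.574 to 4.39 CPM (4.03).

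MAGEB2 (ENSG00000099399, chromosome X, 30215563 to 30220089), a cancer-testis gene, had 36.3, 26.6, 25.5 and 12.5 CPM in the subset on days 6, 9, 12 and 15 and 3.39, 1.37, 0.835 and 0.490 CPM in the reference. It fell over the days in both groups while the log2 fold change was 4.01 (SE 0.20, edgeR adjusted p = 2.38e-07). GPAT2, an acyltransferase expressed in testis, had 10.6 to 26.7 CPM against 0.408 to 2.95 CPM (3.25). APOBEC3G, a cytidine deaminase of antiviral defence, had 26.1, 34.4, 48.2 and 80.4 CPM against 3.93, 4.15, 7.15 and 6.42 CPM (2.98). C20orf204, MYEOV and DNALI1 (a dynein light intermediate chain of cilia) had log2 fold changes of 3.90, 3.03 and 2.98, and TRPM4, a calcium-activated cation channel, lay between the first pair. All of these groups of 4 sums were separate from the reference sums, as they were for every named rise. These genes were picked as the largest rises with the same direction in 4 of 4 libraries, so the separation describes the choice. Its share over all tested genes was not counted. The edgeR adjusted p of the 12 named rises ran from 2.885e-08 to 5.78e-06.

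DKK4, a secreted WNT antagonist (ENSG00000104371, chromosome 8, 42374063 to 42377229), stood out by its distribution over cells. Its summed level was 17.0, 40.5, 41.6 and 63.6 CPM in the subset from day 6 to day 15 and 0.896, 0.354, 0.328 and 2.61 CPM in the reference (log2 fold change 5.23, SE 0.30, edgeR adjusted p = 7.08e-07). Only 114 of 4174 subset cells (2.73%) had a DKK4 UMI, and 1 of them had 144. The 10 cells richest in DKK4 held 47.8% of its 1635 UMIs in the subset. For the other 11 named rises, 11.5% to 26.4% of subset cells had a UMI and the 10 richest cells held 3.69% to 12.9% of the UMIs. DKK4 was thus carried by few cells with many transcripts, whereas RAB25, MAGEB2 and APOBEC3G were found at low level in 631, 893 and 1100 cells.

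Among the genes that fell at a mean of at least 8 CPM, TNFRSF18 had the deepest change (GITR, a TNF receptor family member, ENSG00000186891, chromosome 1, 1203508 to 1206592). It had 4.20, 5.83, 8.15 and 11.1 CPM in the subset from day 6 to day 15 and 36.1, 47.7, 53.4 and 56.8 CPM in the reference (log2 fold change -2.90, SE 0.10, edgeR adjusted p = 3.39e-08). MUC1, a membrane mucin (ENSG00000185499, chromosome 1, 155185824 to 155192916), had 1.42 to 3.26 CPM against 15.4 to 20.9 CPM (-2.78). EEF1A2, an elongation factor of translation, had 2.46, 5.77, 21.2 and 38.7 CPM against 16.3, 31.4, 105 and 131 CPM (-2.29). Within each library EEF1A2 was lower in the subset, but its increase over the days made the 2 sets of sums overlap.

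FXYD2, a regulator of the sodium pump, had 7.64 to 20.6 CPM against 24.4 to 63.2 CPM (-1.79). NPW, a neuropeptide precursor, had 25.7 to 43.2 CPM against 76.8 to 103 CPM (-1.58), and PRSS3, a trypsin, 18.0 to 33.4 CPM against 47.6 to 59.6 CPM (-1.28). NPDC1 (-1.93), the long noncoding RNA gene AC008105.3 (-1.58), TNNT1 (-1.45), the serine protease HTRA1 (-1.40) and CPNE7 (-1.34) were also among the deepest falls at a mean of at least 8 CPM. Each was lower in 4 of 4 libraries, with edgeR adjusted p from 3.39e-08 to 0.000163. AC008105.3 had no more than 2.72 CPM in the subset before day 15, so that its values rest mainly on the last library.

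**Figure D2:**
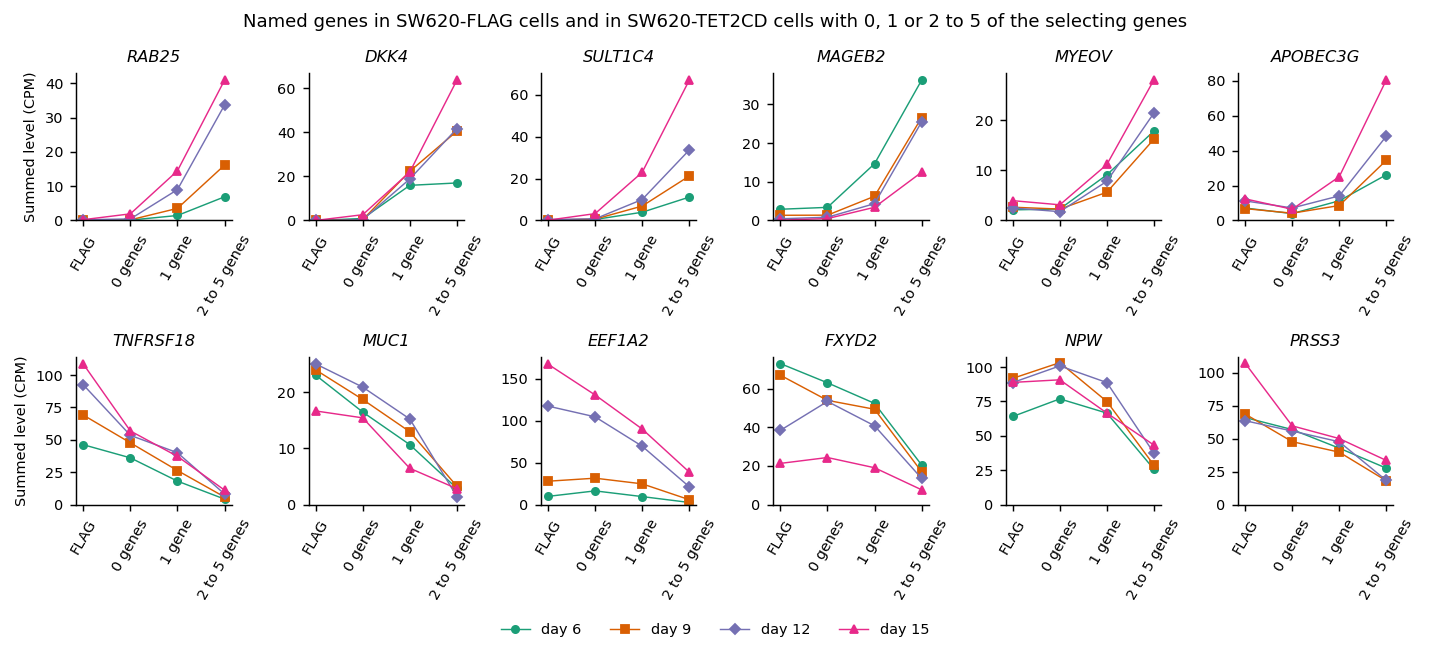
Summed level in CPM (linear y axes) of 6 named rises (top) and 6 named falls (bottom) in SW620-FLAG cells and in SW620-TET2CD cells with 0, 1 or 2 to 5 of the selecting genes; each line joins the 4 cell groups of 1 day, 1 library per line and day. Cells with 1 gene lay between reference and subset on average. Linear axes hide gaps at low levels, such as 0.119 CPM for RAB25 in SW620-FLAG and 0.666 in cells with none of the genes.

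Reference cells lay far below the subset for the raised genes, but not all of these genes were at the level of the control line. The mean RAB25 level over 4 libraries was 0.119 CPM in SW620-FLAG, 0.666 in reference cells, 7.11 in cells with 1 selecting gene and 24.4 in the subset. For MAGEB2 the same means were 1.19, 1.52, 7.17 and 25.2 CPM, and for MYEOV 2.80, 2.36, 8.44 and 20.9 CPM. DKK4 had 0.00473 CPM in SW620-FLAG and 1.05 in reference cells, SULT1C4 0.251 and 1.29, and STRIT1 0.129 and 0.517 CPM, so the reference sums were above the control line for these genes and RAB25. Free RNA from subset cells in the same libraries was not measured, and its part in these low values was not tested. The falls ran the other way, with 79.1, 48.5, 30.4 and 7.33 CPM for TNFRSF18 and 22.2, 17.9, 11.3 and 2.60 CPM for MUC1. Cells just outside the threshold, with 1 gene, thus lay between both groups.

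Levels were also set out by the number of selecting genes. The classes count the genes of the rule, and the named genes were chosen for their difference between subset and reference, so the order describes the selection and was not tested. Cells just inside the threshold, with 2 selecting genes, had mean levels of 19.8 CPM for RAB25 and 19.9 CPM for MAGEB2, and cells with 4 or 5 genes had 34.7 and 37.3 CPM. TRPM4 had 8.89 CPM with 2 genes, 17.5 with 3 and 33.9 with 4 or 5. TNFRSF18 went from 10.1 CPM with 2 genes to 4.60 with 4 or 5, although on day 15 it had 4.78 CPM with 3 genes and 10.3 with 4 or 5. The order over 0, 1, 2, 3 and 4 or 5 genes held in 4 of 4 libraries for 8 of the 12 named rises, the others being DKK4, AGR2, C20orf204 and DNALI1. Among the 12 deepest falls at a mean of at least 8 CPM it held in 4 libraries for 4, EEF1A2, NPDC1, NPW and PRSS3. DKK4 held it in 0 libraries. With 3 genes it had 7.15, 21.7, 25.9 and 144.5 CPM from day 6 to day 15, and with 4 or 5 genes 1.7, 6.08, 42.4 and 25.7 CPM, so that day 15 carries most of the gap between their means and day 12 goes the other way. Median depth was also higher in cells with 4 or 5 genes than in cells with 0, going from 8402 to 10000 UMIs on day 6 and from 7960 to 11420 on day 15, and its part in the order was not tested.

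Levels by TET2 UMIs are a description for the same reason, since TET2 is a selecting gene. Median depth was higher in the top TET2 class than in cells with 0 TET2 UMIs, at 10250 against 8405 UMIs on day 6 and 11520 against 8042 on day 15. With 0, 1, 2 or 3 and 4 or more TET2 UMIs in the cell, the mean level over 4 libraries was 2.30, 10.9, 19.6 and 36.0 CPM for MAGEB2. For GPAT2 it was 2.48, 7.08, 15.3 and 23.3 CPM, and for TRPM4 2.39 CPM at 0 and 20.2 CPM at 4 or more. MUC1 went from 16.8 to 8.57, 4.17 and 1.93 CPM, and EEF1A2 from 66.7 CPM at 0 to 16.3 CPM at 4 or more. The order held in 4 of 4 libraries for RAB25, MAGEB2, GPAT2, TRPM4, TNFRSF18, MUC1, EEF1A2, NPDC1 and NPW, which are 4 of the 12 rises and 5 of the 12 falls. It held in 1 library for DKK4 and in 2 for PRSS3, CPNE7, AC008105.3, AGR2 and MYEOV. In the upper classes the means were 30.6 and 29.3 CPM for AGR2 and 16.3 and 17.2 CPM for MYEOV. Of the other selecting genes, SBSPON had 64.4 and 65.9 CPM there, and H19 65.5 and 94.5 CPM.

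**Figure D3:**
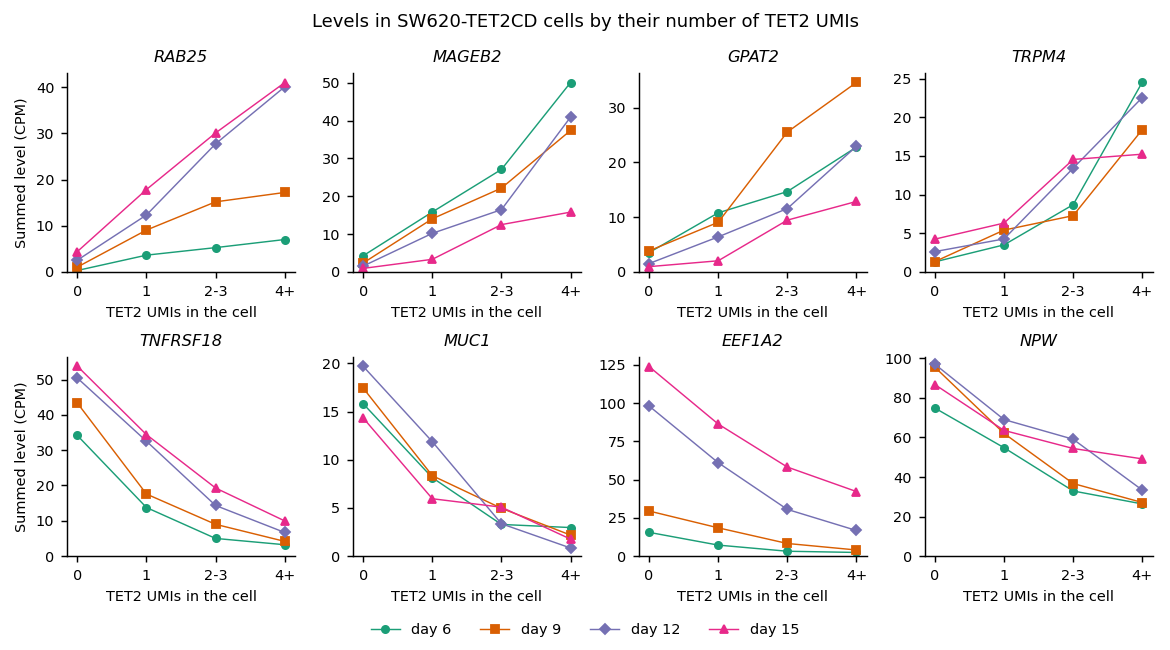
Summed level in CPM (linear y axes) of 4 named rises (top) and 4 named falls (bottom) in SW620-TET2CD cells with 0, 1, 2 to 3 or 4 and more TET2 UMIs (x axes); each line is 1 library. The 8 genes were picked among the 9 of 24 that kept their direction from class to class in 4 of 4 libraries, with MAGEB2 at 2.30 CPM and 36.0 CPM on average in the outer classes.

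No single one of the raised genes marked the subset. The number of the 12 named rises with a UMI averaged 1.63 per subset cell on day 6, 1.94 on day 9, 2.41 on day 12 and 2.09 on day 15. In reference cells the average was 0.174 to 0.221. At least 2 of the 12 were found in 47.4% to 64.4% of subset cells, 12.1% to 21.8% of cells with 1 selecting gene and 1.25% to 2.65% of reference cells. None of the 12 was found in 12.9% to 21.7% of subset cells. These genes were named for this difference, so the counts describe how it spread over cells.

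Cancer-testis and germline genes were rarely detected, and those that were tested were mostly higher. Of 59 listed genes 8 passed the filter on low counts, 7 of them higher and 1 lower (13.1% and 11.1% of all tested genes). Genes of this kind pass the filter through the subset where they are high, so the count does not speak for the list. ERVH48-1, an endogenous retroviral envelope gene, had 5.15, 8.34, 14.6 and 18.8 CPM in the subset and 0.0437, 0.0884, 0.0894 and 0.272 CPM in the reference, or 445 against 19 UMIs in all (log2 fold change 6.43). SPANXB1, a sperm protein gene of the X chromosome, had 532 against 46 UMIs (5.32), TDRD1, of the germline piRNA pathway, 177 against 17 (5.21), and MAGEB1 72 against 2. PIWIL1 also rose (1.25) and PIWIL2 fell (-0.85). SPANXB1 has near-identical relatives, so its counts are uncertain. Of the 51 listed genes that were not tested, 23 had no UMI in either group, and the most any of them had was 64 in the subset and 58 in the reference.

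Imprinted genes were mixed. Of 25 tested among 41 listed, 8 rose and 2 fell, with a median log2 fold change of -0.07 against -0.01 over all genes, of which 13.1% were higher and 11.1% lower. MEG3, a long noncoding RNA of the DLK1 locus, had 1.16 to 2.70 CPM against 0.0298 to 0.219 CPM (3.63). It passed the filter on low counts through the subset, and the filter thus favours rises in the count of this list. IGF2, the growth factor gene beside H19, had 0.659, 0.815, 3.23 and 14.8 CPM from day 6 to day 15 against 0.0874, 0.0442, 0.537 and 1.496 CPM (3.03). A late increase was also seen in SW620-FLAG, where IGF2 had 0.041, 0.165, 0.867 and 2.65 CPM. H19 stayed at or below 0.296 CPM there. PLAGL1, a zinc finger factor, rose by 1.17, and FAM50B, CDKN1C, ASCL2, PPP1R9A and IGF2R by 0.16 to 0.69. GNAS (-0.15) and MEST (-0.28) fell. KCNQ1OT1, PEG10, GRB10 and PHLDA2 did not pass the test.

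Of 15 listed genes that write, read and erase methylation 12 were tested and 6 of them called, against 24.2% of all tested genes. The others were CTCFL, a germline paralog of CTCF, with 21 UMIs in the subset and 2 in the reference, DNMT3L (1 and 2) and ZFP57 (0 in both). Among those called, UHRF1, the hemimethylation reader (0.58), IDH2 (0.49) and DNMT3A (0.27) rose, while TET1 (-0.34), TET3 (-0.34) and GADD45A (-0.49) fell. DNMT1 and DNMT3B did not pass. UHRF1 was 67.7, 69.7, 22.2 and 21.3 CPM in the subset and 52.6, 50.2, 12.7 and 7.42 CPM in the reference, a drop over LTC in both groups. The subset effect was larger on days 12 and 15 than on days 6 and 9 (by 0.672 on the log2 scale, adjusted p = 0.0465 in edgeR's interaction test). The median of the list was 0.02.

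The WNT genes moved in both directions. Of 31, 10 rose and 6 fell (median 0.03), against 13.1% and 11.1% of all tested genes. The antagonists DKK4 (5.23) and DKK3 (2.05) rose, as did the receptor TNFRSF19 (1.65), with 11.2 to 13.5 CPM against 3.37 to 4.38, and the transcription factor LEF1 (0.99). CCND1, the cyclin of G1 phase, had 285, 288, 305 and 328 CPM in the subset and 182, 192, 189 and 216 CPM in the reference. Its log2 fold change was 0.55 (SE 0.05, edgeR adjusted p = 8.38e-06). TDGF1 (-0.66), EPHB3 (-0.53), the feedback inhibitors NOTUM (-0.40) and NKD1 (-0.21), TCF7 (-0.30) and PROX1 (-0.17) fell. AXIN2, LGR5, RNF43 and MYC, other common targets, did not pass.

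Epithelial junction genes and mesenchymal genes moved in both directions, where 13.1% of all tested genes were higher and 11.1% lower. Of 25 junction genes 8 rose and 3 fell (median -0.01), but with the subset chosen by TET2 alone 4 rose and 7 fell. CLDN7, a tight junction claudin, had 84.4, 127, 171 and 131 CPM against 10.6, 9.77, 19.5 and 31.5 CPM (2.88), and GRHL2, an epithelial transcription factor, 105 against 10 UMIs in all (5.22). GRHL2 passed the filter on low counts through the subset, which favours rises in the count. CDH1, E-cadherin, was 44.2, 59.5, 114 and 130 CPM against 26.8, 31.5, 62.6 and 115 CPM (0.59, SE 0.11, edgeR adjusted p = 0.00296), a difference that was small on day 15. EPCAM, the epithelial surface marker of these cells, was at 500 to 586 CPM in the subset and 548 to 568 in the reference (-0.15, adjusted p = 0.0651 by edgeR). Of 22 mesenchymal and matrix genes 4 rose and 7 fell (median -0.06), while on plain CPM 7 were higher and 5 lower in 4 of 4 libraries. MMP7 (-1.97), ITGA5 (-0.997), SNAI2 (-0.95), ZEB1 (-0.54), TNC (-0.47) and TGFB1 (-0.47) were among those that fell, and TWIST2 (1.40), ITGB6 (0.76), VIM (0.35) and TGFBI (0.22) rose. ZEB1, a repressor of CDH1, was 5.51, 6.84, 5.43 and 16.1 CPM against 7.30, 7.82, 10.9 and 21.4 CPM. VIM, vimentin, was 736 against 472 CPM on day 6 and 334 to 344 against 207 to 319 CPM later.

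Of the TET2 target genes that the study named, RORA and VEGFA moved in opposite directions. RORA, a nuclear receptor, was 4.79, 7.09, 13.8 and 16.8 CPM in the subset and 2.49, 1.81, 7.96 and 5.55 CPM in the reference (log2 fold change 1.23, SE 0.18, edgeR adjusted p = 0.000494). SW620-FLAG cells had 4.20, 3.88, 7.45 and 3.67 CPM of RORA, so on day 6 the subset was near the control line. In thinned cells the RORA log2 fold change was 0.828 and did not pass (adjusted p = 0.07413 by edgeR), whereas VEGFA passed. VEGFA, the vascular growth factor, was 4.31 and 7.34 CPM early and up to 64.8 CPM late in the subset, against 7.23 and 9.77 CPM early and 79.5 and 108 CPM late (-0.71, SE 0.08, edgeR adjusted p = 6.3e-05). Its steep increase over LTC was seen in both groups, and it was lower in the subset within each library. SPARC had 0 UMIs in both groups and could not be compared. JUN was at 383 to 902 CPM against 419 to 899 CPM (-0.12, adjusted p = 0.11 by edgeR).

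Those genes of MHC class I antigen presentation that were called all rose, while the lowest log2 fold change of the list was -0.048. All 15 were tested, and 10 rose and 0 fell, with a median of 0.50, against 13.1% higher and 11.1% lower over all tested genes. The same shares stand beside the interferon and NF-kB counts. HLA-B was 12.1, 16.8, 50.6 and 73.8 CPM against 3.39, 5.72, 15.9 and 22.2 CPM (1.61, SE 0.07, edgeR adjusted p = 8.51e-08). The immunoproteasome subunit PSMB9 was 5.51 to 15.6 CPM against 1.40 to 3.51 CPM (1.79), and NLRC5, the transactivator of the pathway, rose at very low levels (1.86, 55 against 50 UMIs in groups of unequal size). NLRC5 passed the filter on low counts through the subset. TAP1, HLA-E, HLA-F, PSMB8, HLA-C, ERAP1 and CALR rose by 0.21 to 1.36, while B2M did not pass. The count was 7 of 14 higher and 0 lower in thinned cells and 9 of 14 and 0 with UMI-matched reference cells. Among 25 interferon-stimulated genes 6 rose, including IFI27 (2.34) and MX1 (1.15), and 2 fell, ISG15 (-0.41) and IFIT2 (-0.55), so that the wider list (median 0.11) was not uniform. Of 14 NF-kB genes TNFAIP2 (2.68), IL32, ICAM1, NFKB2 and RELB rose and the chemokine CXCL8 fell (-0.85).

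Cytosolic ribosomal protein genes were lower in 37 of 40 cases, by a small amount. None of the 40 rose, with a median of -0.24 and a range from -0.35 to -0.01, and RPL7, RPS15 and RPL27 did not pass. RPS29 was 1194, 1040, 1371 and 1447 CPM in the subset and 1432, 1259, 1680 and 1720 CPM in the reference. The median was -0.25 with DESeq2's size factors, -0.26 in thinned cells and -0.25 with UMI-matched reference cells, with 37, 35 and 38 genes lower. CPM are printed here without the scaling between sums (TMM) that the fold changes use, and on plain CPM the median of the list was -0.161, with 38 genes lower in 4 of 4 libraries and RPS15 higher in all. Of 48 nuclear OXPHOS subunits 5 fell and 0 rose (median -0.01), close to the 11.1% lower of all tested genes, and on plain CPM 21 were higher and 4 lower in 4 of 4 libraries. Of 13 mitochondrially encoded subunits 3 fell (median -0.07), and in thinned cells none passed edgeR. Of 20 glycolysis enzymes HK1, PFKP, SLC16A3 and PGAM1 rose by 0.20 to 0.47 and ENO2 and GPI fell (-0.28 and -0.48), while with the subset chosen by TET2 alone 2 rose and 5 fell. Beside the counts of these 4 lists stand 13.1% higher and 11.1% lower of all tested genes. Of tested genes over 100 CPM in SW620-FLAG 10.3% were higher and 20.5% lower.

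The counts of the following lists stand against 13.1% higher and 11.1% lower of all tested genes. None of 30 G2/M genes passed edgeR's test or DESeq2's (median 0.04), and with UMI-matched reference cells 0 rose and 6 fell. Of 30 S-phase genes CCNE1 (1.04), UHRF1, GINS2 and FEN1 rose and POLD3 and CHAF1B fell (median 0.13), and in thinned cells none of the 30 passed edgeR in either direction. On plain CPM the median of the S-phase list was 0.279, with 15 genes higher and 0 lower in 4 of 4 libraries. Of 20 p53 targets and CDK inhibitors 1 rose and 5 fell, among them CDKN2B (-0.63) and CDKN2A (-0.35). Of 28 HIF targets BNIP3 (1.89), NDUFA4L2 (1.32) and ADM (1.202) rose and 6 fell, led by AK4 (-1.08). The lipid synthesis list had 7 genes higher, from DHCR7 (0.20) to FASN (0.40), and SCD lower (-0.27), of 25. With UMI-matched reference cells 12 were higher and 1 lower, and with the subset chosen by TET2 alone 3 and 2. Stress response genes were divided, with ATF5 (1.25) and PHGDH (0.85) higher and ATF4 (-0.26) and SLC7A11 (-0.59) lower, and 3 higher against 4 lower of 20. AP-1 and immediate early genes gave 6 higher and 2 lower of 24, or 3 and 4 with the subset chosen by TET2 alone, and heat shock proteins 4 and 2 of 15, led by HSPA1A (0.79). Metallothioneins split evenly, with MT1M (1.86), MT1E and MT1A higher and MT1G (-0.74), MT1X and MT2A lower.

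Single genes of other epithelia rose beside CALML3. Of 20 listed squamous genes 5 passed the filter on low counts, and genes such as CALML5 did so through the subset, so their count does not speak for the list. The 3 that rose were CALML5 (231 against 9 UMIs, log2 fold change 6.44), SERPINB5 (1.58) and S100A2 (0.26). Among 12 tested keratins KRT5, a basal cell keratin, had 3.88 to 6.83 CPM against 0.0894 to 0.420 CPM (4.11), KRT23 37.2 to 103 against 9.86 to 27.8 CPM (1.85) and KRT7 188 to 234 against 104 to 140 CPM (0.79). KRT81 and KRT18 also rose, while KRT80 and KRT86 fell. KRT5 passed the filter on low counts through the subset, which favours rises in the count of keratins. With the subset chosen by TET2 alone 3 keratins rose and 4 fell, and 2 squamous genes rose and 2 fell. Of 27 listed intestinal genes 12 passed the same filter. Of these 12, 6 rose, led by TFF1 (2.38), LGALS4 (1.90) and GUCA2A (1.52), and HNF4A and PHGR1 fell. GUCA2A had 66 against 59 UMIs and was lower in the subset on day 12. Of 26 listed genes of RAB GTPases and the primary cilium 21 were tested, and 5 rose and 0 fell. Among them were GLI3, a Hedgehog transcription factor, at 149 against 44 UMIs (3.47) and MYO5A, a myosin of vesicle transport, at 1.11. GLI3 also passed the filter through the subset. Beside the counts of these lists stand 13.1% higher and 11.1% lower of all tested genes.

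Among markers of other cell types, 4 of 12 fibroblast, 4 of 12 immune and 4 of 10 endothelial markers had 0 UMIs in both groups, and others were well detected. Of 12 fibroblast markers 4 were tested, COL6A3 (90 against 10 UMIs) and ACTA2 being higher and LUM lower, and FAP, COL3A1, PDGFRA and POSTN had 0 UMIs in both groups. Of 12 immune markers LYZ was higher (31.6 to 75.9 against 5.68 to 21.0 CPM) and CD68 lower, and PTPRC, which all leukocytes carry, had 2 and 0 UMIs in the subset and the reference. Of 10 endothelial markers CLDN5 (80 against 19 UMIs) and PECAM1 (113 against 39) were higher, and KDR, EMCN, PLVAP and ERG had 0 UMIs. Genes such as COL6A3, CLDN5 and PECAM1 passed the filter on low counts through the subset, so the calls do not speak for these lists. Of all tested genes 13.1% were higher and 11.1% lower. Other markers had UMIs in the subset and the reference, such as PDGFRB (11 and 31), DCN (7 and 21), CD14 (14 and 31), CD79A (14 and 46), VWF (15 and 35) and ESAM (30 and 44). The part of other cell types in the results was not tested.

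**Figure D4:**
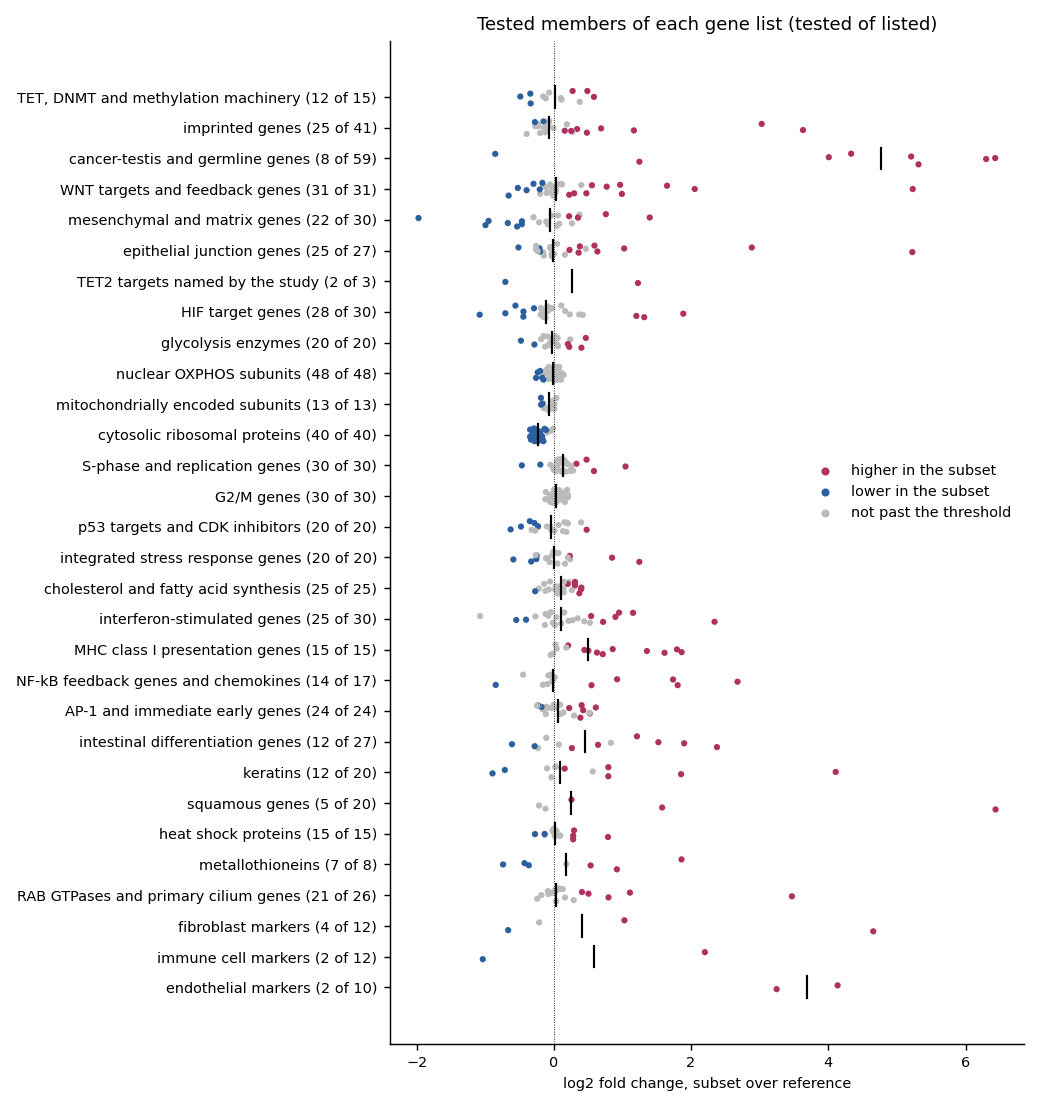
Log2 fold change of the subset over the reference (x axis) for each tested member of the 30 gene lists (rows, with the number tested of those listed); points are genes, red where higher and blue where lower at an edgeR adjusted p of 0.05, grey where not, and black bars are list medians. The ribosomal protein points lay left of 0 (37 of 40 called lower), and MHC class I points mostly right of it (10 of 15 called higher).

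The shares called were also counted by a gene's level in the control line. Of 1904 tested genes with a mean of 0.1 to 1 CPM in SW620-FLAG cells 19.4% were higher in the subset and 2.05% lower. At 10 to 100 CPM (6593 genes) the shares were 11.5% and 13.0%, and over 100 CPM (1346 genes) 10.3% and 20.5%. The 55 tested genes at or below 0.1 CPM were all higher, which the filter on low counts imposes, and the filter also favours rises among genes at 0.1 to 1 CPM. By chromosome, at most 16.9% of tested genes were higher and 8.74% to 15.4% lower, with medians between -0.04 and 0.04.

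The effect of the subset was also compared between the days, with an interaction term in the same edgeR fit. It differed between days 12 and 15 and days 6 and 9 for 238 of 15051 genes (1.58%), larger late for 115 (0.764%) and smaller late for 123 (0.817%). IGFBP2, an insulin-like growth factor binding protein, had 42.0 and 48.7 CPM against 36.7 and 35.9 CPM on days 6 and 9, and 156 and 84.9 CPM against 29.5 and 16.8 CPM on days 12 and 15. Its late minus early effect was 2.04 on the log2 scale (SE 0.11, adjusted p = 3.55e-07 by edgeR). TUBB2B, a neuronal beta-tubulin, ran the other way, with 53.6 and 111 CPM against 10.1 and 24.9 CPM early and 201 and 111 CPM against 84.1 and 63.3 CPM late (-1.24). None of the genes named above as the largest rises and deepest falls passed this test, their smallest adjusted p being 0.087 in edgeR's interaction test, for NPW. The number of genes was 30 without the day 6 library, 62 without day 9, 1508 without day 12 and 257 without day 15, where a period then rests on 1 library.

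The day 15 bulk libraries gave values from cells that had not been selected. TET2 had 38.1 TPM (transcript abundance scaled by length and to a common total) inside and 124 TPM outside the colonies in SW620-TET2CD, against 1.15 and 1.29 TPM in SW620-FLAG. H19 had 51.0 and 785 TPM, RAB34 8.79 and 44.8, CALML3 8.62 and 28.8 and SBSPON 4.55 and 26.9 TPM, with no value above 0.48 TPM for these 4 genes in SW620-FLAG. Each of the 5 genes was higher outside than inside in SW620-TET2CD. In bulk samples, a different number of such cells and a different amount of RNA per cell cannot be told apart. There was 1 library per line and location, and no test was made.

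Most of the named rises were also higher in SW620-TET2CD in bulk. DKK4 had 30.1 TPM inside and 734 outside in SW620-TET2CD, against 0.28 and 0.23 TPM in SW620-FLAG, MYEOV 5.82 and 41.1 against 0.26 and 1.26, and GPAT2 5.90 and 38.3 against 0.83 and 0.48. AGR2 was the exception to the difference in location, with 31.3 TPM inside and 21.5 outside, and STRIT1 had only 0.10 TPM inside. TNFRSF18 had 13.5 and 6.94 TPM against 28.4 and 28.2, and FXYD2 3.92 and 2.91 against 97.9 and 93.8 TPM. NPDC1 went the other way inside the colonies, with 51.7 TPM against 42.5. Of 11 named falls 10 were lower in SW620-TET2CD inside and 11 outside, and of the 12 named rises 11 were higher inside and 12 outside. Any difference in TPM counts here, however small. Over all tested genes the shares were counted only for both locations together (36.7% higher, 27.6% lower), so these counts have no like share beside them. In the day 15 single-cell libraries FXYD2 had 21.3 CPM in SW620-FLAG, 24.4 in reference cells and 7.64 in the subset, so the large gap between the lines in bulk was not seen between SW620-FLAG and reference cells. VIM had 41.6 and 180 TPM against 11.4 and 24.6 TPM in SW620-FLAG, but in the day 15 single-cell libraries it had 344 CPM in the subset, 207 in the reference and 423 in SW620-FLAG. IGF2 had 7.72 and 80.2 against 1.17 and 2.63 TPM. VEGFA, which was lower in the subset, had 306 and 181 against 166 and 183 TPM, so in bulk it was higher in SW620-TET2CD inside the colonies. RORA had 2.51 and 8.27 against 2.58 and 2.83 TPM. HLA-B, which was higher in the subset, had 64.3 and 190 against 92.6 and 118 TPM, so it was lower in SW620-TET2CD inside and higher outside.

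Over all tested genes in the bulk tables, 36.7% had a higher TPM in SW620-TET2CD than in SW620-FLAG both inside and outside the colonies, and 27.6% a lower one in both. Of the 622 genes over 2-fold higher in the subset 65.4% were higher in both locations and 5.14% lower in both. Many of the largest rises were near 0 in SW620-FLAG and passed the filter on low counts through the subset. Such genes can hardly be lower in SW620-TET2CD in bulk, and the shares over all tested genes were not matched on level. Of the 219 genes over 2-fold lower in the subset 71.7% were lower in both and 5.94% higher. The median log2 ratio (TPM + 1) of the 622 genes was 0.249 inside and 0.853 outside, and that of the 219 genes -0.377 and -0.734. Both medians were farther from 0 outside the colonies than inside.

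**Figure D5:**
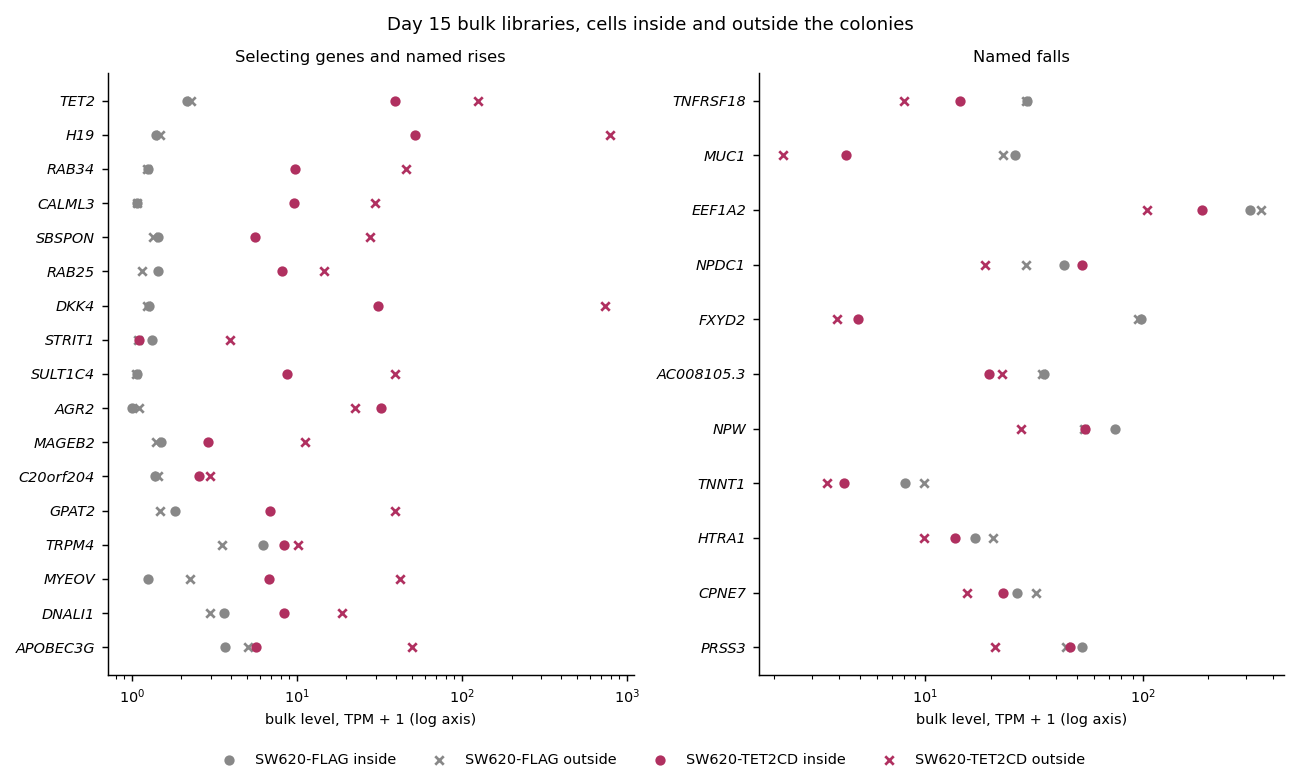
Bulk level (TPM + 1, log x axis) of the 5 selecting genes and 12 named rises (left) and 11 named falls (right) on day 15; circles are cells inside and crosses cells outside the colonies, grey for SW620-FLAG and red for SW620-TET2CD, 1 library each. All 5 selecting genes lay higher in SW620-TET2CD and highest outside, as for H19 at 785 TPM.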

How the data were processed

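Single-cell libraries were processed by the authors with Cell Ranger 4.0 on GRCh38 and deposited as raw UMI counts per gene and barcode. Day 15 bulk libraries were deposited as TPM made by the authors, whose depth is unknown, and bulk libraries of day 6 were not used. Whether doublets were removed before deposit is not stated in the texts read, and no doublet caller was run. An alternative left out the 8% of cells with most UMIs.

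Barcodes were kept within limits of 200 and 4500 detected genes, 1000 and 20000 UMIs, and a mitochondrial share no higher than 10%. UMIs were summed per library and group (6014893 to 45764935 UMIs) and tested with edgeR 4.0.16 (filterByExpr, TMM, quasi-likelihood, library as block, Benjamini-Hochberg adjustment). DESeq2 1.42.0 was an alternative. Reference cells come from the same libraries, and each day has 1 library. With the library as block, p-values measure how the difference between subset and reference varied over these 4 libraries of different days. The spread between cultures of the same day was not measured. Libraries shared 1 to 23 barcodes in 28 pairs. The steps were tested on simulated data. Intervals are Clopper-Pearson and cover counting error only.

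Members and gene lists were chosen with earlier results of these data known. Named genes were the 12 largest rises and falls past the threshold, the same way in 4 of 4 libraries at a mean of 8 CPM or more, the 6 largest interactions, the study's genes, and up to 4 per list; other list members were picked after their values were seen. Some items are not reported here.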

Additional observations from a re-analysis of the deposited data

Results flagged for a closer look

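The effect of the subset differed between late (days 12 and 15) and early (days 6 and 9) libraries for 238 genes by edgeR's interaction test with Benjamini-Hochberg adjustment. It was larger late for IGFBP2 (2.036 on the log2 scale, adjusted p = 3.553e-07 by edgeR), for GASK1B, a Golgi-associated kinase family member (1.672, adjusted p = 0.003982 by edgeR), and for ANXA1, annexin A1, a phospholipid-binding protein (1.567, adjusted p = 0.001412 by edgeR). It was smaller late for IL32, a cytokine (-1.814), CHST15, a sulfotransferase of chondroitin sulfate (-1.605), and TUBB2B (-1.235), each with an adjusted p of 0.0009941 by edgeR. In thinned cells IL32 had an adjusted p of 0.08348 and ANXA1 of 0.07999 by edgeR, and with the subset chosen by TET2 alone the ANXA1 value was 0.254 (adjusted p = 0.6215 by edgeR). The 6 genes stayed past the threshold when any 1 library was left out. Each period holds 2 libraries of 1 line.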

How the results depend on the processing

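Of 2224 values of 142 named results under alternatives, 1997 kept direction and side of the threshold, 213 lost the threshold, 14 gained it and 0 reversed. The 3644 genes past the threshold were 275 (245 higher, 30 lower) with no library block, 5741 (2694 and 3047) with every barcode, 1301 (769 and 532 of 12448 tested) with thinned cells, and 2413 to 3598 when 1 library was left out, lowest without day 9. The higher share of calls was 54.0% and became 43.1% of 4904 with no filter on low counts, 43.7% of 4326 with a mitochondrial limit of 20% and 89.1% with no block. The causes were not tested. Thinning changed both the UMIs and the cells that met the rule. The 238 genes that differed between periods were 56 by DESeq2, 560 with no filter, 37 with thinned cells, 56 with at least 3 of the 5 genes, and 30 to 1508 when 1 library was left out (30 without day 6, 62 without day 9, 1508 without day 12), an alternative added after seeing the data. The mean share of cells in the subset (16.5%) was 6.574% with thinned cells, 7.83% with at least 3 of the genes and 9.687% without TET2 in the rule. Without TMM scaling, also added after seeing the data, 8 of the 11 list medians below 0 came to lie above it: imprinted (0.0444), mesenchymal (0.0253), epithelial junction (0.0633), glycolysis (0.0511), nuclear OXPHOS (0.0692), p53 (0.0491), stress response (0.0699) and NF-kB genes (0.0313). Subset and reference were paired by library in the test itself, through the library block, and its removal gave the 275 genes above. By replicate number, no paired analysis was possible because each line and day has 1 replicate.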
